A study of Homo sapiens with 12 samples.

Results

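The genes INSIG1, INSIG2, SREBF1, SREBF2, SCAP, STARD4, ABCA1 and ABCG1 sense, carry and export sterols. They were chosen by name as genes of sterol regulatory element-binding protein (SREBP) control, sterol transport and efflux by the liver X receptor (LXR) route, and each matched 1 row of the table, so that 8 of 34687 rows are described. RNA was measured on Illumina HumanHT-12 v4 expression arrays in HCT116 cells, an established human colon cancer line, and PANC1 cells, an established human pancreatic adenocarcinoma line. Cells received 0.05% DMSO, the solvent control, or 10 uM of ICG-001 or C646, and were collected after 12 or 96 h. ICG-001 blocks the binding of the acetyltransferase CBP to β-catenin, and C646 inhibits the acetyltransferase activity of both CBP and p300. Each of the 12 combinations of line, treatment and time had 1 column of signal intensities, a mean over 2 arrays, or over 3 for PANC1 ICG-001 12 h. No spread between arrays could be computed, so every difference is a size with no error and no test, and the number of arrays limits its precision. Cells of the 96 h groups were passaged during treatment while those of the 12 h groups were not. They were also treated from a lower confluency and received new medium and drug daily. Effects of time cannot be told apart from those of these conditions.

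Cells keep their sterol content steady through transcription and its feedback. When membranes of the endoplasmic reticulum hold little cholesterol, SCAP escorts the SREBP precursors encoded by SREBF1 and SREBF2 to the Golgi, where proteases release the active factors, which switch on genes of cholesterol and fatty acid synthesis. When sterols are plentiful, INSIG1 and INSIG2 hold SCAP back in the endoplasmic reticulum, and INSIG1 is itself a target of the SREBPs. STARD4 carries cholesterol between membranes, and ABCA1 and ABCG1 export it, their genes being activated by LXR when oxysterols build up.

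Promoter sequences from RefSeq (GRCh38.p14) were held for 7 of the 8 genes, each from 250 bases before to 50 bases after a start, and 4 are printed. INSIG1 and SCAP are shown because their RNA levels moved most, SREBF2 because it alone held the core letters of the sterol regulatory element, and ABCA1 because it held a match to the LXR element. The strand is that of the gene, and capitals mark the motif letters CACGTG (E-box), CCAAT or its reverse complement (NF-Y box), TCACCCCAC (core of the sterol regulatory element) and the LXR element match.
INSIG1, chr7:155297628-155297927, plus strand: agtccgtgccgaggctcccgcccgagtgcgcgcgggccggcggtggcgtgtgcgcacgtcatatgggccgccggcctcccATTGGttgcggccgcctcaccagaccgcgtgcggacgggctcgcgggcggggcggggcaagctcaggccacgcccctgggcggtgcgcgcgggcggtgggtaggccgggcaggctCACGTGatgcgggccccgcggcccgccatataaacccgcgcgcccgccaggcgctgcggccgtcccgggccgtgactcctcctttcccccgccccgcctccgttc
SCAP, chr3:47475892-47476191, minus strand: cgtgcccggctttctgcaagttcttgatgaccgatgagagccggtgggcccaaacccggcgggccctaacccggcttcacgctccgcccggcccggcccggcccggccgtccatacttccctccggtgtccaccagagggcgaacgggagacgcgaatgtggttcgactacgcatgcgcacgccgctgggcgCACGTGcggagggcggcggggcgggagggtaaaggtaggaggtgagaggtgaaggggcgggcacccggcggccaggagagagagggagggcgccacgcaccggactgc
SREBF2, chr22:41832855-41833154, plus strand: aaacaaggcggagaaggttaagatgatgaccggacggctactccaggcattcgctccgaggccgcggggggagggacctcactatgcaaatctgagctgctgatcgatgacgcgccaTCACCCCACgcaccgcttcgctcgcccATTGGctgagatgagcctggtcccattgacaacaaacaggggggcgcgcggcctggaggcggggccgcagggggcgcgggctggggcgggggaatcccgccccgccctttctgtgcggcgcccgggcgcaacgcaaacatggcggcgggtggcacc
ABCA1, chr9:104928106-104928405, minus strand: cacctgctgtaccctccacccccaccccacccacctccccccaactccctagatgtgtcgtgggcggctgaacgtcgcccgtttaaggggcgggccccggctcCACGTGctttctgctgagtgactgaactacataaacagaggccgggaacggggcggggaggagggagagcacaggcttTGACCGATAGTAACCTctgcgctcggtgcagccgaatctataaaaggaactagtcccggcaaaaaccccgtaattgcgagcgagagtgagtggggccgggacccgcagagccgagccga
Positions are counted from the start base, which is 0. The E-box letters stood at -55 to -50 in INSIG1, at -58 to -53 in SCAP and at -147 to -142 in ABCA1, and 7.26% of 35116 promoters held them on either strand. The letters TCACCCCAC stood at -133 to -125 in SREBF2, against 0.43% of all promoters. The LXR element was searched as 2 copies of AGGTCA with 4 bases between them and at most 2 mismatches over both copies. It matched on the opposite strand of ABCA1 at -69 to -54, against 2.34% of all promoters. CCAAT was found in 34.6% of all promoters, in INSIG1 at -170 to -166, in SREBF2 at -106 to -102, and in STARD4 at -161 to -157 and at -130 to -126. GGGCGG, the Sp1 box, is not capitalised, was found in 45.0% of all promoters and occurred in all 7 genes. These matches describe letters within the windows and are no evidence of binding.

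A gene was compared where at least 1 of the paired columns exceeded the detection limit, and was taken as changed from 1.5-fold, which is 0.585 on the log2 scale. That limit, set 2.33 background SD above the most frequent log2 signal of a column, lay between 142.5 and 143.9 in HCT116 cells and between 135.1 and 137.7 in PANC1 cells. Background was left in the signal, so ratios of dim genes understate their change. INSIG1, INSIG2, SREBF1, SREBF2 and SCAP were above the limit in all 6 columns of each line. ABCA1 was above it in 4 columns of HCT116 and 6 of PANC1, ABCG1 in 4 and 2, and STARD4 in 4 and 0. Epithelial markers (EPCAM, CDH1, KRT8, KRT18 and KRT19) were above the limit in all columns of both lines, whereas of the leukocyte markers PTPRC and CD3E were above it in none and LYZ in 3 HCT116 columns, and of the fibroblast markers COL1A1 was above it in all columns, COL3A1 in 5 PANC1 columns, and DCN and PDGFRB in none. Their part in the results was not tested. Of the 6 colon markers, CDX1, VIL1, CDH17 and LGALS4 were above it in no HCT116 column, and of the 5 pancreatic duct markers KRT7, SOX9 and MUC1 were above it in every PANC1 column, so the markers of the labelled tissues were only partly present. Signal distributions differed between the lines, so signals are compared within a line and the lines through their ratios.

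**Figure D1:**
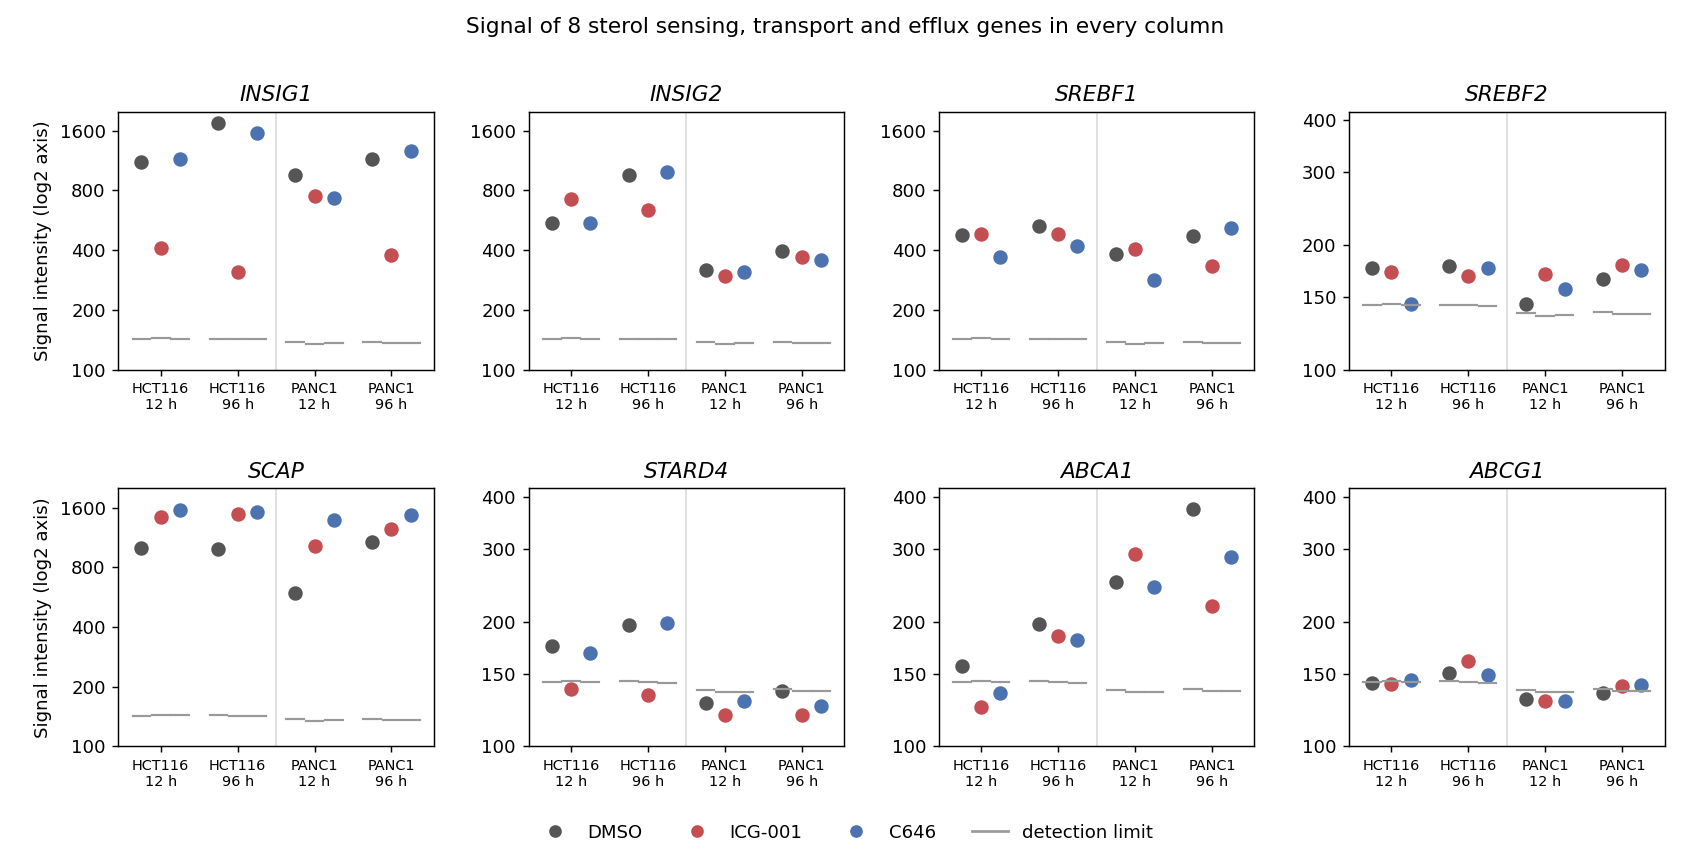
Signal intensity (log2 axis) of each gene in the 12 columns, by cell line, time and treatment, with 1 point per column and grey bars at the detection limit of that column. INSIG1 was lowest in the ICG-001 columns of both lines at 96 h, SCAP was lowest in the DMSO column of each line and time, and ABCG1 and STARD4 lay near the limit.

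INSIG1, the sterol-sensing brake on SREBP transport, fell with ICG-001 in HCT116 cells at both times and in PANC1 cells at 96 h. With DMSO, ICG-001 and C646 in turn, its signal in HCT116 cells was 1108.6, 412.7 and 1156.3 at 12 h and 1752.8, 310.7 and 1552.6 at 96 h. In PANC1 cells it was 957.1, 750.1 and 736.6 at 12 h and 1153.5, 377.7 and 1266.7 at 96 h. In HCT116 cells both ICG-001 columns lay below all 4 other columns, and in PANC1 cells the ICG-001 column of 96 h lay below all 5 others. Against DMSO of the same time, ICG-001 lowered INSIG1 2.69-fold at 12 h and 5.64-fold at 96 h in HCT116 cells, log2 ratios of -1.43 and -2.496. The ratio at 96 h was the lowest of the 17192 genes compared, and that at 12 h ranked 11 from the lowest of 17098. PANC1 cells gave a log2 ratio of -0.35 at 12 h, short of the threshold, and of -1.61 at 96 h, a 3.05-fold fall that ranked 5 from the lowest of 17232. With C646 the log2 ratios were 0.06 and -0.175 in HCT116 cells and -0.38 and 0.14 in PANC1 cells, none past the threshold. Against the DMSO column of 96 h, the ratios at 12 h that were short of it passed it, at -0.60 (C646) in HCT116 cells and at -0.62 (ICG-001) and -0.65 (C646) in PANC1 cells. In these bulk samples a change in RNA per cell and a change in the mix of cells cannot be told apart.

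INSIG2, the second INSIG protein, followed another course. Its signal in HCT116 cells was 548.1, 724.6 and 549.6 with DMSO, ICG-001 and C646 at 12 h, and 956.4, 635.6 and 992.3 at 96 h. PANC1 cells gave 317.6, 295.0 and 311.9 at 12 h and 394.6, 371.2 and 356.5 at 96 h. The HCT116 columns of 12 and 96 h thus differed more from each other in DMSO and C646 than in ICG-001, and in PANC1 cells the columns of each time lay close together. ICG-001 gave log2 ratios of 0.40 at 12 h and -0.59 at 96 h in HCT116 cells, the latter 1.5045-fold and only just past the threshold. With the DMSO columns exchanged, the ratio at 12 h turned to -0.40 and that at 96 h to 0.21, so both directions rest on the DMSO column used. All other log2 ratios of INSIG2 with a drug over DMSO of the same time lay between -0.15 and 0.05. With the DMSO columns exchanged, C646 in HCT116 cells gave -0.80 at 12 h and 0.86 at 96 h, both past the threshold.

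SREBF1, which encodes the SREBP-1 factors known for fatty acid synthesis, did not pass the threshold as deposited against DMSO of the same time in any of 8 comparisons. Its signal in HCT116 cells was 479.3, 483.3 and 368.4 with DMSO, ICG-001 and C646 at 12 h and 529.2, 480.3 and 418.3 at 96 h. In PANC1 cells the values were 380.9, 405.6 and 284.6 at 12 h and 473.1, 333.5 and 519.9 at 96 h. C646 columns were the lowest of their time in HCT116 cells and at 12 h in PANC1 cells, with log2 ratios of -0.38, -0.34 and -0.42, whereas the PANC1 ratio at 96 h was 0.14. ICG-001 gave its lowest ratio, -0.50, in PANC1 cells at 96 h. A background correction (normexp) turned that ratio into -0.64, past the threshold. Against the PANC1 DMSO column of 96 h (473.1), the C646 signal of 12 h (284.6) was also past it.

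SREBF2, which encodes SREBP-2, the main activator of cholesterol synthesis, was dim throughout. Its HCT116 signals were 176.0, 172.1 and 143.8 with DMSO, ICG-001 and C646 at 12 h and 178.4, 168.2 and 175.9 at 96 h, and its PANC1 signals were 144.1, 170.4 and 156.2 at 12 h and 165.1, 179.4 and 173.6 at 96 h. Its log2 ratios lay between -0.29 and 0.24 with none past the threshold as deposited. With normexp the -0.29 of C646 in HCT116 cells at 12 h became -0.75, past it. The columns nearest the detection limit were HCT116 C646 12 h and PANC1 DMSO 12 h.

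SCAP, the escort of the SREBPs, was the member that rose most often. In HCT116 cells its signal was 1003.5, 1436.5 and 1560.2 with DMSO, ICG-001 and C646 at 12 h and 994.3, 1486.4 and 1526.0 at 96 h, so that all 4 drug columns lay above both DMSO columns. In PANC1 cells it was 595.5, 1026.3 and 1388.9 at 12 h and 1074.0, 1251.6 and 1473.8 at 96 h, with DMSO the lowest column of each time, although the ICG-001 column of 12 h lay below the DMSO column of 96 h. C646 raised it 1.55-fold and 1.53-fold in HCT116 cells at 12 and 96 h, log2 ratios of 0.64 and 0.62, and 2.33-fold (1.22) in PANC1 cells at 12 h, which ranked 125 from the highest of 17552 genes. ICG-001 raised it 1.72-fold (0.79) in PANC1 cells at 12 h. The other SCAP log2 ratios, 0.52 and 0.58 with ICG-001 in HCT116 cells and, in PANC1 cells at 96 h, 0.22 (ICG-001) and 0.46 (C646), were short of the threshold. Both drugs are set against the same DMSO columns, and the PANC1 DMSO column of 12 h was low. Against the PANC1 DMSO column of 96 h, the ratios at 12 h became -0.0656 (ICG-001) and 0.37 (C646), and against that of 12 h the ratios at 96 h became 1.07 and 1.31, past the threshold. In HCT116 cells the exchange of DMSO columns left the SCAP ratios between 0.52 and 0.65.

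STARD4, a cytosolic cholesterol carrier, was above the limit only in HCT116 columns without ICG-001. The signals there were 175.2 and 196.7 with DMSO and 167.7 and 198.2 with C646 at 12 and 96 h, and those with ICG-001 were 137.4 and 133.4, not above the limit. Set against the limit, STARD4 was at least 1.22-fold lower with ICG-001 at 12 h and at least 1.38-fold lower at 96 h, and the measured log2 ratios were -0.35 and -0.56. These are short of the threshold as deposited, while a background correction (normexp) turned them into -0.95 and -1.41. The C646 ratios were -0.06 and 0.01. In PANC1 cells the signals ranged from 118.8 to 135.7, at or under the limit in every column, and no comparison was made.

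ABCA1, the exporter that loads cholesterol onto apolipoprotein A-I, fell with ICG-001 in PANC1 cells at 96 h. Its PANC1 signal was 249.7, 291.4 and 242.9 with DMSO, ICG-001 and C646 at 12 h and 375.0, 218.8 and 286.6 at 96 h, so that the ICG-001 column of 96 h was the lowest and the DMSO column of 96 h the highest of the 6. The 1.71-fold fall, a log2 ratio of -0.78, ranked 267 from the lowest of 17232 genes, and against the DMSO column of 12 h the ratio was -0.19. C646 gave -0.39 at 96 h, short of the threshold. Against the PANC1 DMSO column of 96 h (375.0), the C646 signal of 12 h (242.9) was past it. HCT116 signals were 156.0, 124.3 and 134.9 at 12 h, where only DMSO was above the limit, and 197.1, 184.8 and 180.3 at 96 h, and no HCT116 ratio passed the threshold as deposited. With normexp the HCT116 ratios at 12 h were -1.10 (ICG-001) and -0.64 (C646), and against the DMSO column of 96 h the former was -0.67, all past it. ABCG1, the exporter that passes cholesterol to high-density lipoprotein, stayed near the limit, with HCT116 signals of 141.3 to 160.5, PANC1 signals of 128.8 to 140.4 and log2 ratios of -0.02 to 0.10.

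**Figure D2:**
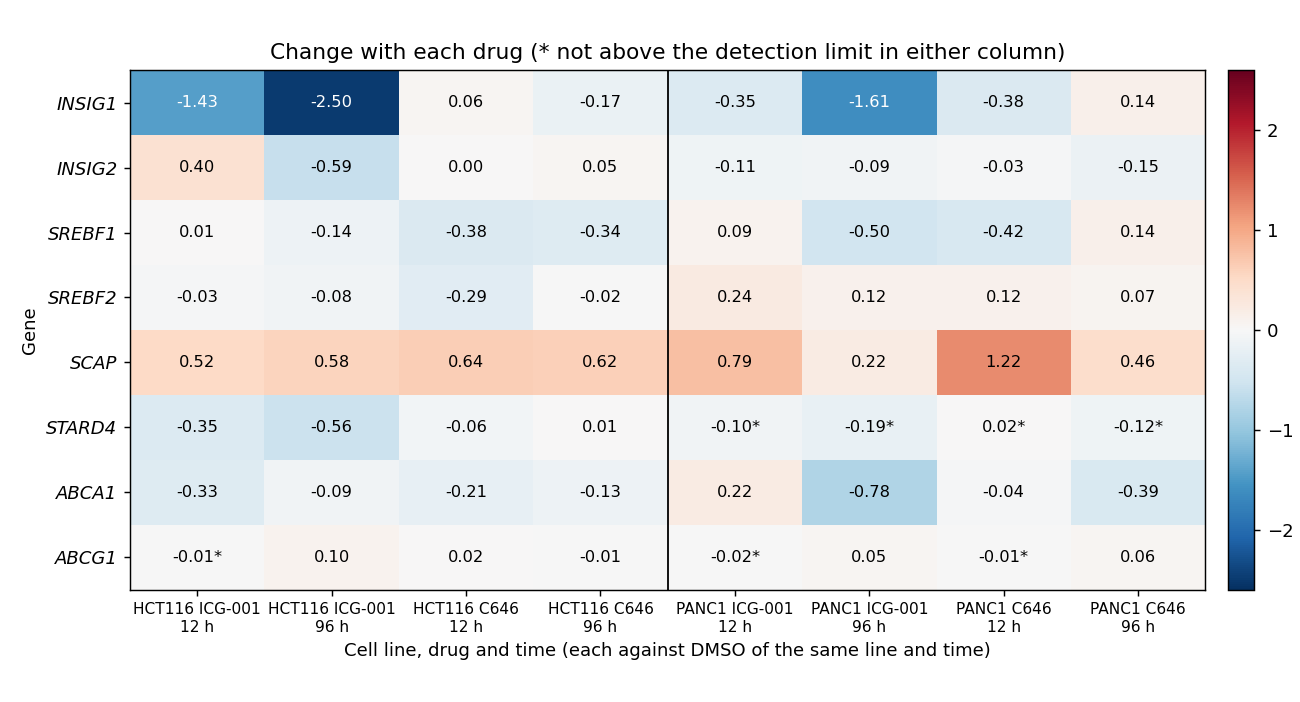
Log2 ratio of each gene with each drug over DMSO of the same line and time, 1 cell per gene and comparison, with lower values in blue and higher in red. The deepest falls, -1.43, -2.496 and -1.61, were those of INSIG1 with ICG-001, and the ratios of SCAP ranged from 0.22 to 1.22.

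Over the 4 ICG-001 comparisons, 28 of 32 pairs of gene and comparison were above the limit, of which 5 were lower and 1 was higher, against 3.28% lower and 3.99% higher among all genes compared. The lower calls were INSIG1 alone in HCT116 cells at 12 h (4.14% of all genes), INSIG1 and INSIG2 at 96 h (5.08%), and INSIG1 and ABCA1 in PANC1 cells at 96 h (3.58%), and the higher call was SCAP in PANC1 cells at 12 h (2.18%). Over the 4 C646 comparisons, 0 of 29 pairs were lower and 3 were higher, against 1.66% and 2.82% of all genes. Each of the 3 was SCAP, in HCT116 cells at 12 h (2.59%) and 96 h (1.88%) and in PANC1 cells at 12 h (3.98%). In PANC1 cells at 96 h, C646 changed none of the 7 genes compared, against 4.01% of all genes in either direction. The changed pairs fell on 4 of the 8 genes, and 3 of the 5 lower calls with ICG-001 were INSIG1. The median log2 ratio of all genes compared lay between -0.0145 and 0.007 in each comparison with DMSO.

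**Figure D3:**
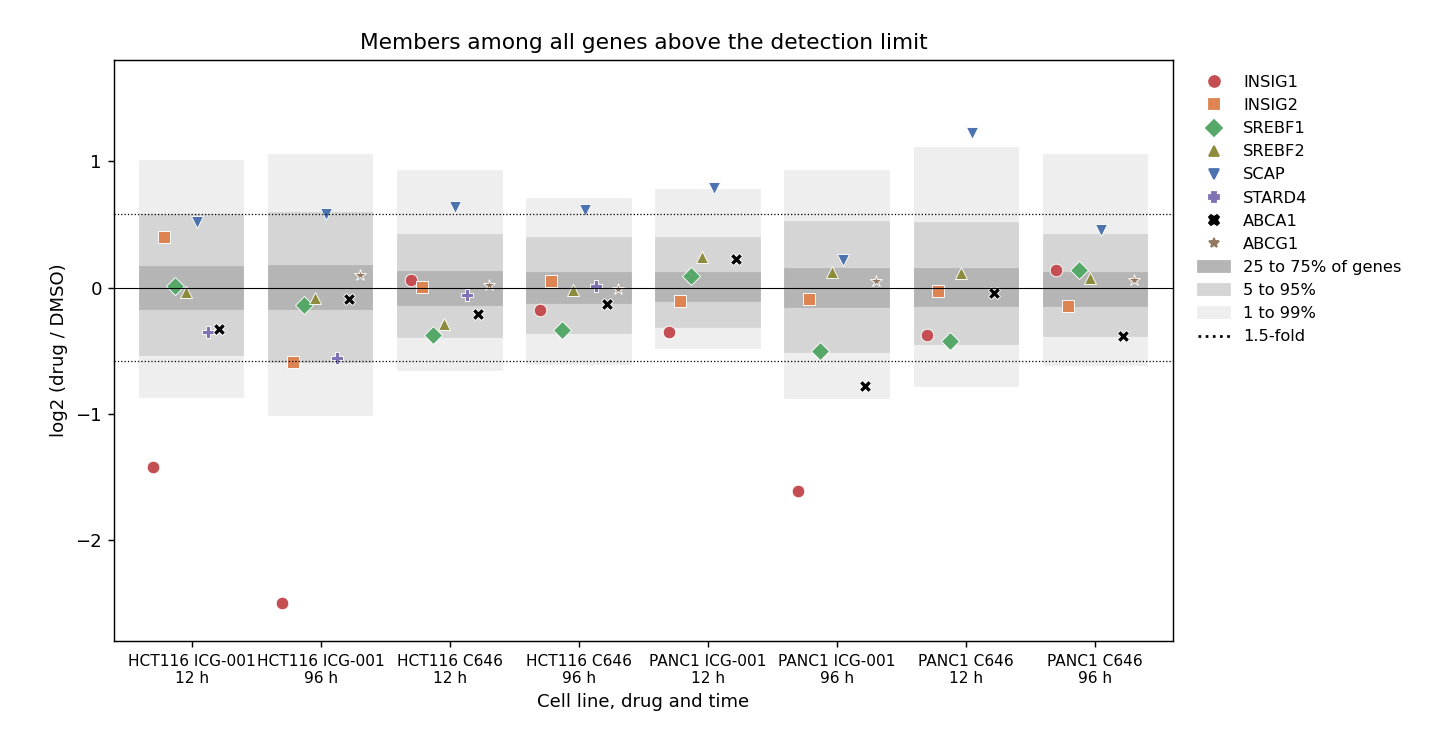
Log2 ratio over DMSO of each member above the detection limit (symbols) against the spread of all genes compared (grey bands: 25 to 75%, 5 to 95% and 1 to 99% of genes), with dotted lines at 1.5-fold. INSIG1 lay below the 1% band with ICG-001 in HCT116 cells at both times and in PANC1 cells at 96 h, and SCAP lay above the 99% band in PANC1 cells at 12 h with each drug.

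ICG-001 and C646 were both given at 10 uM, and the drug columns of a line and time were also compared without DMSO. Whether this dose was equally effective for both drugs was not tested. INSIG1 was lower with ICG-001 than with C646 in HCT116 cells at 12 and 96 h, log2 ratios of -1.49 and -2.32 that ranked 6 and 3 from the lowest, and in PANC1 cells at 96 h (-1.75, rank 3), but at 12 h the PANC1 ratio was 0.03. INSIG2 was lower with ICG-001 in HCT116 cells at 96 h (-0.64), and SREBF1 in PANC1 cells at 96 h (-0.64). These 5 differences, 1 in HCT116 cells at 12 h (2.82% of all genes lower), 2 at 96 h (3.22%) and 2 in PANC1 cells at 96 h (3.5%), were the ones past 1.5-fold, and none was found in PANC1 cells at 12 h (2.49% of all genes in either direction). SCAP, which rose with both drugs in PANC1 cells at 12 h, differed between them by -0.44 there and by -0.12, -0.04 and -0.24 in the other comparisons. With 1 column per drug no interval can be given for these differences.

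Between 12 and 96 h, some members differed without any drug. With DMSO, INSIG1 and INSIG2 were higher at 96 h in HCT116 cells, log2 differences of 0.66 and 0.80 (1.55% of all genes were higher), and SCAP and ABCA1 were higher in PANC1 cells, 0.85 and 0.59 (0.976%). The PANC1 SCAP difference was thus larger than its ratio with ICG-001 at 12 h. With ICG-001, INSIG1 was lower at 96 h in PANC1 cells (-0.99, against 1.75% of all genes lower), and the HCT116 difference was -0.41, where none of the 7 genes compared passed the threshold (6.8% of all genes in either direction). With C646, INSIG2 was higher at 96 h in HCT116 cells (0.85, 3.75%), and INSIG1 and SREBF1 were higher in PANC1 cells (0.78 and 0.87, against 0.4% of all genes higher). INSIG1 therefore ran upward from 12 to 96 h in the DMSO and C646 columns of both lines and downward in the ICG-001 columns, though only 3 of these 6 differences passed the threshold.

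The other genes of these pathways were examined in 6 lists. Of 12 genes of early cholesterol synthesis, 9 were lower with ICG-001 in HCT116 cells at 12 h and 9 at 96 h, and 2 and 8 in PANC1 cells, with medians of -0.83, -1.06, -0.28 and -0.73 on the log2 scale and none higher. The shares of all genes lower in these comparisons were 4.14%, 5.08%, 0.336% and 3.58%. C646 lowered 0, 1, 1 and 0 of them in the same order (1.52%, 1.21%, 2.69% and 1.19% of all genes were lower), with medians of -0.04, -0.27, -0.28 and -0.07. IDI1, the isomerase of the isoprenoid units, had ICG-001 ratios of -1.18 and -2.26 in HCT116 cells at 12 and 96 h and of -0.88 and -1.19 in PANC1 cells. SQLE, which oxidises squalene, had -0.83 and -1.83 in HCT116 cells. Of 10 genes of late cholesterol synthesis, ICG-001 lowered 5 and 3 in HCT116 cells and 0 and 6 in PANC1 cells at 12 and 96 h, with medians of -0.59, -0.32, -0.16 and -0.82. It raised 1 in PANC1 cells at 12 h, where 2.18% of all genes were higher. C646 lowered 0, 1, 1 and 0, with medians of 0.13, -0.10, -0.06 and 0.14. It raised 1 in each comparison, where 2.59%, 1.88% and 3.98% of all genes were higher, and 481 of 17059 in PANC1 cells at 96 h. The gene that rose was HSD17B7, a sterol ketoreductase, with C646 ratios in HCT116 cells of 0.91 at 12 h and 0.64 at 96 h, PANC1 ratios of 1.41 and 1.45, and an ICG-001 ratio of 0.64 in PANC1 cells at 12 h. DHCR7, the last reductase, fell by 1.12 and 1.58 on the log2 scale in HCT116 cells and had -0.25 and -1.68 in PANC1 cells. With C646 it fell by 0.60 in HCT116 cells at 96 h and by 0.92 in PANC1 cells at 12 h, the latter a larger fall than with ICG-001 at that time. SC4MOL (now MSMO1), a sterol demethylating oxidase, fell by 0.86 and 1.52 in HCT116 cells and had -0.31 and -1.35 in PANC1 cells. These lists were drawn up with earlier results of these data known, and the counts are descriptions.

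The shares of all genes lower in each comparison, given above for the early list, apply to the next lists too. Of 12 genes of fatty acid synthesis, ICG-001 lowered 1 and 4 in HCT116 cells and 0 and 7 in PANC1 cells at 12 and 96 h, with medians of -0.26, -0.37, -0.23 and -0.62, and C646 lowered 0 and 0 in HCT116 and 2 and 0 in PANC1 cells. The 1 gene lower in HCT116 cells at 12 h, ACLY (-0.75), the ATP citrate lyase, stood against 4.14% of all genes, and the 2 lower with C646 in PANC1 cells at 12 h, FADS1 (-1.14) and FADS2 (-0.82), both desaturases, against 2.69%. LPIN1, a phosphatidate phosphatase, and FADS1, a fatty acid desaturase, had log2 ratios of -1.17 and -0.91 with ICG-001 in HCT116 cells at 96 h, and SCD, the stearoyl-CoA desaturase, and FADS1 both had -1.42 in PANC1 cells. The next list held enzymes and partners that process SREBP or bind INSIG, and its few calls do not set it apart from all genes. Of 9 of 10 such genes above the limit, ICG-001 lowered 1 in HCT116 cells at 12 h (4.14% of all genes were lower) and none in the other comparisons, and C646 raised 1 in PANC1 cells at 12 h (3.98% were higher). TMEM97, a sterol-responsive membrane protein, had -0.67 and -0.52 with ICG-001 in HCT116 cells, PAQR3, a Golgi anchor of SCAP, had 0.35 and 0.52, and VCP, the extraction ATPase, had 0.02 and -0.50 in PANC1 cells and was the gene raised by C646 (0.66).

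Of 16 genes of sterol transport and storage, 13 to 15 were compared, and of 13 LXR receptors and targets, 10. Of all genes, 4.8% and 5.11% were higher with ICG-001 in HCT116 cells at 12 and 96 h, and 2.18% and 3.87% in PANC1 cells. Of the transport genes, ICG-001 raised 1 and lowered 2 of 15 in HCT116 cells at 12 h, lowered 2 of 15 at 96 h, changed 0 of 13 in PANC1 cells at 12 h, and raised 3 and lowered 2 of 14 at 96 h. C646 raised 1 and lowered 2 of 14 in PANC1 cells at 12 h, against 3.98% and 2.69% of all genes, and changed none of 14 in the other comparisons. The genes raised were NPC1, a lysosomal cholesterol exporter, with ICG-001 in HCT116 cells (0.67), the oxysterol-binding protein relatives OSBPL1A (0.68) and OSBPL5 (0.74) and the sterol carrier GRAMD1A (0.75) with ICG-001 in PANC1 cells, and GRAMD1A with C646 (0.89). SCARB1, the high-density lipoprotein receptor, had -0.62 and -0.93 in HCT116 cells and -0.44 and -0.84 in PANC1 cells at 12 and 96 h. LIPA, the lysosomal lipase that frees cholesterol from its esters, had -0.59 and -0.62 in HCT116 cells and -0.30 and -0.84 in PANC1 cells. Both were the genes lowered by C646 in PANC1 cells at 12 h, SCARB1 by a log2 ratio of -0.74 and LIPA by -0.59, each a larger fall than with ICG-001 at that time. Of the LXR list, 10 genes were above the limit. ICG-001 raised 1 in HCT116 cells at 12 h and 0 at 96 h, and 0 in PANC1 cells at 12 h, and raised 1 and lowered 1 at 96 h. C646 raised 1 in each line at 12 h (2.59% and 3.98% of all genes were higher) and changed none at 96 h. The gene raised at 12 h was RXRB, a partner of the LXR receptors, with 0.61 (ICG-001) and 0.61 (C646) in HCT116 cells and 0.93 (C646) in PANC1 cells. Those changed by ICG-001 in PANC1 cells at 96 h were PLTP, the phospholipid transfer protein (0.60), and LPCAT3, a phospholipid acyltransferase (-0.85). The receptor gene NR1H2 had 0.11 and 0.46 and its partner RXRA had -0.06 and 0.36 in HCT116 cells, short of the threshold.

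**Figure D4:**
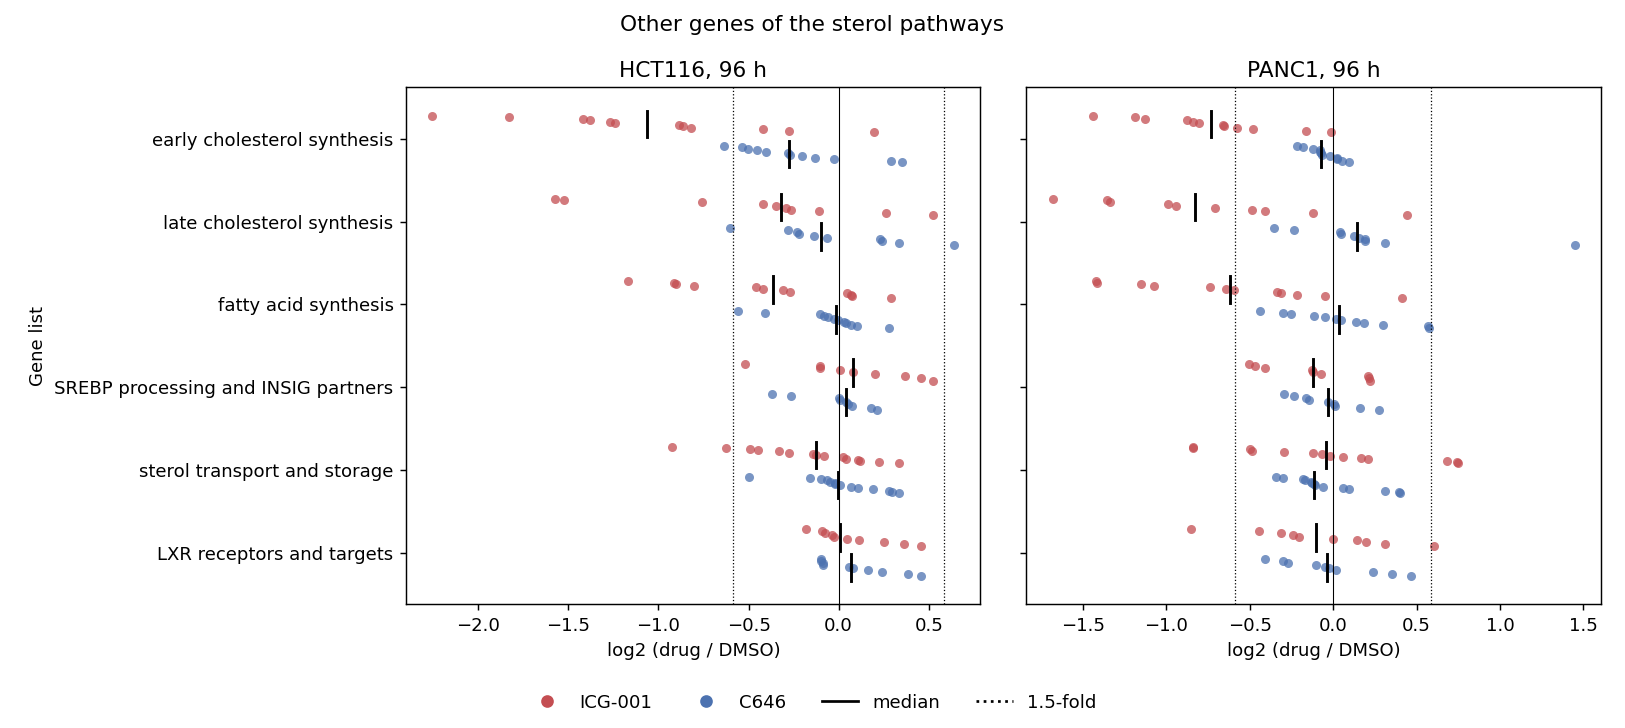
Log2 ratio over DMSO at 96 h of the genes of each list above the detection limit, 1 point per gene, for ICG-001 (red) and C646 (blue) in each line, with black bars at the list medians and dotted lines at 1.5-fold. With ICG-001 the medians of early cholesterol synthesis were -1.06 in HCT116 and -0.73 in PANC1 cells, and those of the processing, transport and LXR lists lay between -0.13 and 0.08.

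For each member past 1.5-fold with a drug, the 3 genes with the closest pattern were found over the 12 columns among 5276 genes, by Pearson's r of log2 signals after each line's mean was removed. For INSIG1 these were SC4MOL (r of 0.97), FDFT1 (0.96), the squalene synthase gene of the early list, and IGF2BP3 (0.96), which encodes an RNA-binding protein. SCAP was matched most closely by E4F1 (0.98), a row named only by a UniGene cluster (0.96) and ZNF672 (0.95). INSIG2 was nearest to PJA2 and TRIM38, each with 0.90, and ABCA1 to WBP2 (0.88), NUCB1 (0.88) and PROS1 (0.87). The columns share their DMSO cultures, cell line and normalization, and these values are descriptions over 12 points. The SCAP pattern and those of its 3 neighbours had in common a low PANC1 DMSO column at 12 h.

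**Figure D5:**
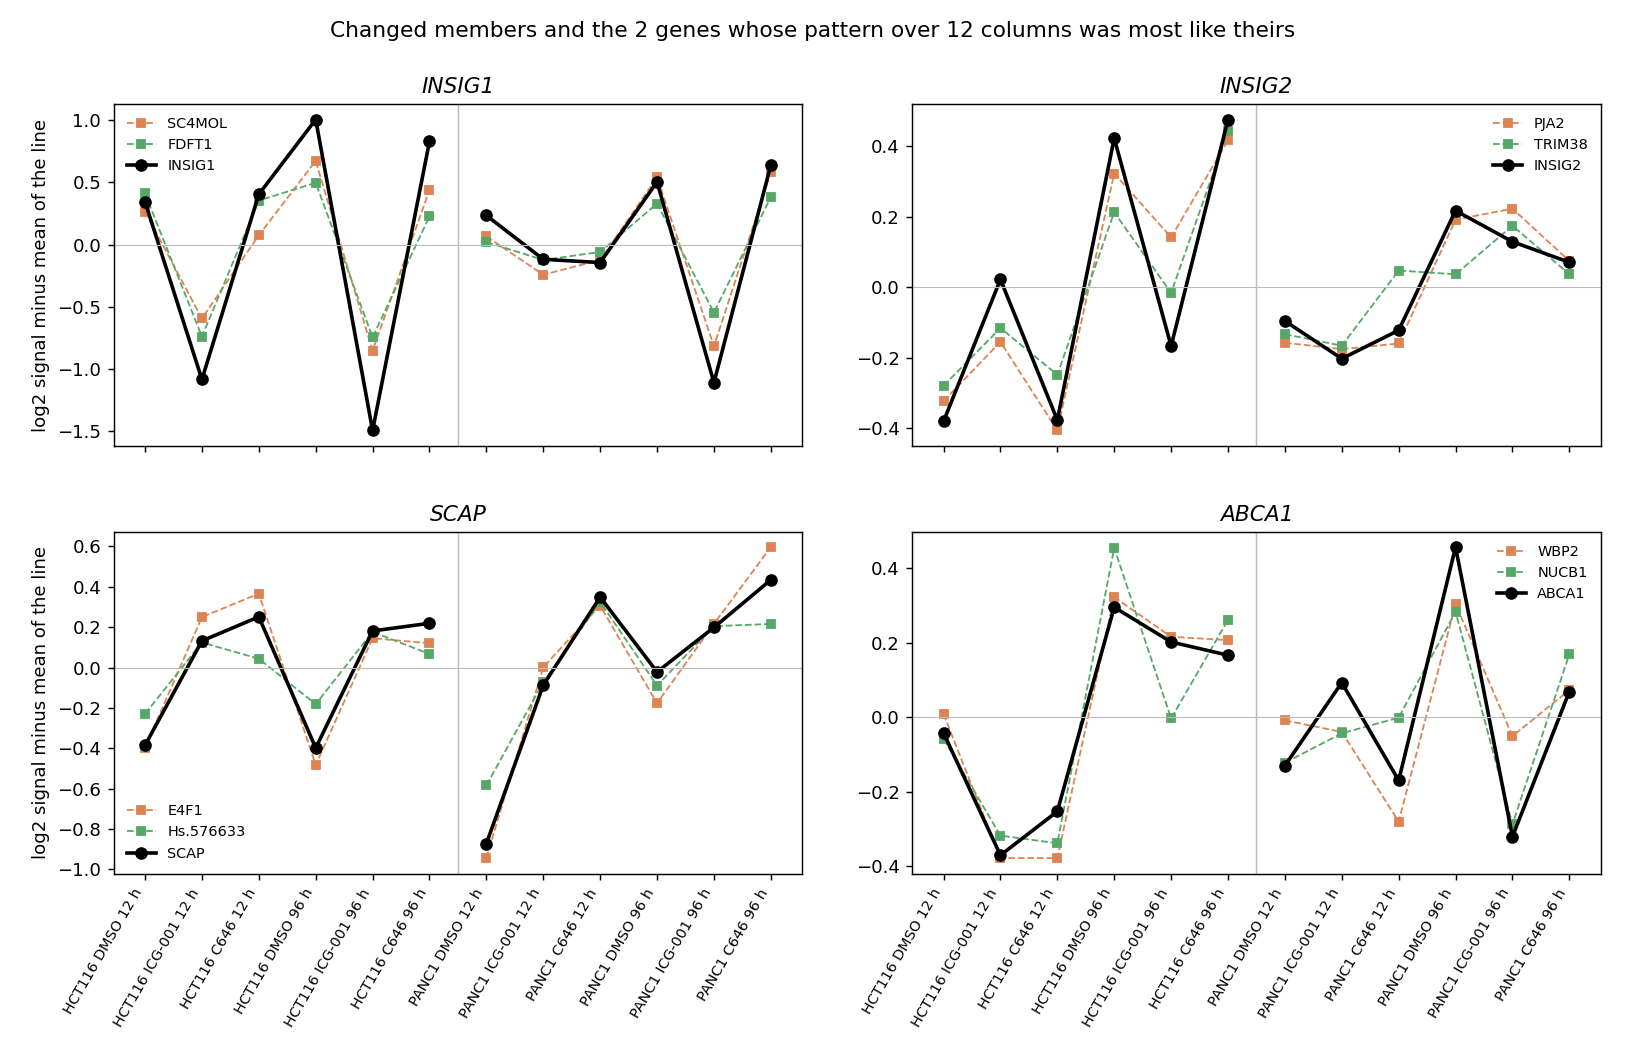
Log2 signal minus the mean of its line over the 12 columns for the 4 members past 1.5-fold with a drug (black) and the 2 genes most like each (coloured, dashed). INSIG1 and its neighbours dipped in the ICG-001 columns of HCT116 cells and in that of PANC1 cells at 96 h, and SCAP and its neighbours were lowest in PANC1 DMSO 12 h.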

How the data were processed

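RNA was amplified with the Illumina TotalPrep kit, hybridised to Illumina HumanHT-12 v4 arrays, and read out in GenomeStudio, where the authors applied quantile normalization but subtracted no background, and averaged replicate arrays. The deposited values are signal intensities on a linear scale, 1 per gene name, in 12 columns, each of which was 1 group by its label, with 0 further columns of values. Log2 differences between columns were computed with Python 3.11.15, numpy 2.4.6 and pandas 2.3.3. Sorted log2 values differed on average by at most 0.0093 within a line and at least 0.063 between lines. The detection limit and the 1.5-fold threshold are given with the results. The comparison was tested on simulated 2-fold changes of genes well above the limit, which did not cover dim genes or changes near 1.5-fold. From each list the 2 genes with the largest ICG-001 ratio at 96 h in each line are named, except that some items are not reported here, and ACLY, HSD17B7, FADS2, NPC1, OSBPL1A, OSBPL5, GRAMD1A and RXRB were named after their values were seen. Alternatives were other fold thresholds, limits, DMSO columns and normalizations, and normexp correction with an offset of 16 in limma 3.58.1 (R 4.3.3). The members and lists were chosen with earlier results of these data known. No comparison of protein sequences was made.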

Additional observations from a re-analysis of the deposited data

Results flagged for a closer look

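For 2 genes the log2 ratios with a drug kept 1 sign at both times within each line, and that sign was opposite between the lines. This difference was not tested. SREBF2 with ICG-001 had log2 ratios of -0.03 and -0.08 in HCT116 cells at 12 and 96 h and of 0.24 and 0.12 in PANC1 cells, and the line means differed by -0.24 (HCT116 minus PANC1). SREBF2 with C646 had -0.29 and -0.02 in HCT116 and 0.12 and 0.07 in PANC1 cells, a difference of -0.25, and both drugs share the DMSO columns. INSIG2 with C646 had 0.0039 and 0.05 in HCT116 and -0.03 and -0.15 in PANC1 cells, a difference of 0.12. No ratio passed 1.5-fold, and 9.95% of 14143 genes with ICG-001 and 10.1% of 14103 with C646 showed such opposite signs. Among genes under the limit in both columns, ratios over DMSO had an SD of 0.066 to 0.072. The -0.03 and -0.02 of SREBF2 in HCT116 cells and every INSIG2 ratio but -0.15 lay within it, so those signs carry little weight.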

How the results depend on the processing

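No paired analysis was possible because each group had 1 column, in which the authors had averaged the replicate arrays, and for the same reason no replicate could be left out. Without a filter on dim genes, with a limit at 5 SD, with centred ratios or with quantile normalization over all columns, 64 of 64 log2 ratios moved by less than 1 background SD. Quantile normalization over all columns still took the lower ICG-001 calls from 5 to 4, losing INSIG2 in HCT116 cells at 96 h (-0.58), and it and centring each took the calls between times from 8 to 7. At a threshold of 1.2-fold, the ICG-001 calls were 10 lower and 4 higher (14.1% and 14.1% of all genes), and the C646 calls 6 lower and 4 higher (11.4% and 10.9%). The differences between drugs were then 12 and those between times 21. At 2-fold the lower and higher ICG-001 calls were 3 and 0 (0.532% and 0.807% of all genes), the C646 calls 0 and 1 (0.176% and 0.86%), and the differences between drugs and times 3 and 0. With normexp these counts were 9 and 2 (8.81% and 9.35%), 2 and 3 (5.78% and 7.13%), and 10 and 13, and the medians of early cholesterol and fatty acid synthesis were -0.95 and -0.40, against -0.74 and -0.30 as reported over the 4 ICG-001 comparisons. With the mean of both DMSO columns, ICG-001 gave 3 lower calls (3.44%) and the median of late cholesterol synthesis was -0.48. With the DMSO column of the other time, C646 gave 5 lower calls (3.38%), INSIG1 in both lines at 12 h among them, that median was -0.40 against -0.33, and 19 of 64 ratios changed sign. Of the ratios past 1.5-fold, 2 reversed, INSIG2 in HCT116 cells with ICG-001 at 96 h (0.21) and SCAP in PANC1 cells with ICG-001 at 12 h (-0.0656). The calls for ratios between drugs, between times and for lists under these settings were added after the data were seen. For the counts between drugs and between times under these settings, no share of all genes was computed, so they cannot be set against one. The INSIG1 falls kept their call with either DMSO column, at -2.09 and -1.84 in HCT116 cells and -1.34 in PANC1 cells with that of the other time. The cause of these shifts was not tested.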
